A study of Homo sapiens with 12 samples.

Results

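The libraries described here are all 12 of the series: 6 from esophageal squamous carcinoma cells that carried a CDCA7 construct, set against 6 from the same 2 cell lines in their native state. In KYSE180 the construct raised CDCA7 (3 overexpression libraries against 3 native ones), and in KYSE150 it was a short hairpin against CDCA7 (3 shCDCA7 libraries against 3 native ones). The members were chosen by these labels and by no measured value. The quantity described is the average of the change with overexpression in KYSE180 and the change with the hairpin in KYSE150. A gene that follows CDCA7 by equal amounts moves in opposite directions in the 2 lines and cancels in that average, whereas a gene that rises or falls with either construct keeps its change.

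KYSE180 and KYSE150 are established human lines from squamous carcinoma of the esophagus, grown here in RPMI-1640 medium with 10% fetal bovine serum. Native cells are labelled wild type in both lines, and nothing in the labels gives them an empty vector, a control hairpin or a selection step; libraries with such controls were not analysed here. Carrying a construct, having been through its delivery and carrying more or less CDCA7 therefore cannot be told apart within a line. The labels name no clone and no delivery method, and they do not say whether the 3 libraries of a group came from separate cultures, so p-values measure the spread between these libraries, which may be technical. Cells were harvested with trypsin and total RNA was extracted with TRIzol. In such bulk RNA, fewer cells of a kind and less RNA per cell cannot be told apart.

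CDCA7 is a zinc finger protein that recognises hemimethylated DNA and brings the chromatin remodeller HELLS to it, which helps to keep DNA methylation in place. The gene is itself an E2F and MYC target that peaks around the G1/S transition. Many of the genes described below belong to fast-acting programs. Immediate-early genes such as JUNB and the DUSP phosphatases respond within minutes to serum, growth factor or stress signals and then damp those signals, DDIT3, HERPUD1 and HSPA5 serve the unfolded protein response of the endoplasmic reticulum, and PER1 and NR1D1 are repressors of the circadian clock that are also inducible. The question in the series title concerns CDCA7 and epithelial-mesenchymal transition driven by TGF-beta through SMAD4 and SMAD7.

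CDCA7 itself moved as the labels say. CDCA7 (ENSG00000144354, chr2:173354820-173368997, plus strand, 3934 exonic bases) stood at 24, 18.2 and 17.4 FPKM in native KYSE180 and 44.6, 59.1 and 57.9 FPKM with overexpression. CDCA7 in KYSE150 had 27.4, 25.6 and 25.6 FPKM in native cells and 9.24, 10.1 and 8.83 FPKM with the hairpin. Neither pair of groups overlapped. The log2 change was 1.4 in KYSE180 and -1.39 in KYSE150, and the average of the 2 was 0.01 (SE 0.41, adjusted p = 0.994), so its own change cancels in the quantity described here. HELLS, its partner, was at 6.19, 6.31 and 5.56 FPKM in native KYSE180 and 3.66, 4.35 and 3.89 FPKM with overexpression. HELLS in KYSE150 had 5.14, 5.52 and 5.82 FPKM in native cells and 4.13, 6.27 and 4.23 FPKM with the hairpin. Its average log2 change was -0.33 (SE 0.11, adjusted p = 0.0389); the groups overlapped in KYSE150, and the call was lost on leaving out any library but KYSE150 native 1 or hairpin 2 (adjusted p from 0.00138 to 0.0847).

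Values are deposited as FPKM, fragments per kilobase of exon scaled to library size, from which whole reads could be recovered. Depth ran from 16282281 to 19573805 reads per library. Log2 values of replicates correlated at 0.939 to 0.994 across genes, and no pair of libraries agreed within counting noise. Hairpin library 2 stood apart from the other 2 hairpin libraries, with 11.2% of its reads on mitochondrial genes. The spread among KYSE180 natives was wider than among KYSE150 natives, and KYSE180 native 3 lay nearest the overexpression libraries for several cell cycle genes. Squamous markers were present in every library (all 8 of a fixed list were tested, KRT5 and TP63 among them, and 4 of them were called higher with a construct); their summed level was 1908 to 3453 FPKM in native and 3860 to 4467 FPKM in overexpressing KYSE180, and 423 to 440 FPKM in native and 613 to 711 FPKM in hairpin KYSE150. None of 16 leukocyte and 12 endothelial markers was expressed enough to be tested, with MS4A1, LYZ, TYROBP and EMCN at 0 in all libraries and summed levels of 0.446 to 3.53 FPKM and 0.0563 to 2.79 FPKM. Of 13 fibroblast markers 3 were tested and 1, FBLN1, was called higher (2 without KYSE180 native 3 or hairpin 2); DPT was at 0, and the summed level was 20.9 to 36.4 and 39.2 to 42.6 FPKM in native and overexpressing KYSE180, and 5.34 to 6.05 and 6.83 to 8.86 FPKM in native and hairpin KYSE150. The part of these shifts in the results below was not tested.

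A construct of either kind went with a broad change. Of 12672 genes with a mean of at least 1 FPKM over the 12 libraries, 1801 (14.2%) were higher and 1407 (11.1%) lower in construct libraries, 3208 in all (25.3%), at an adjusted p under 0.05 in limma with the line as a block. The median size of a called change was 0.48 on the log2(FPKM + 1) scale, used for every log2 change here, and 125 higher and 48 lower genes changed by at least 1. All 3 construct libraries lay above all 3 native ones in both lines for 1125 of the called genes (8.88% of those tested), and below them in both lines for 829 (6.54%). These 1954 genes made up 60.9% of the calls. For the other called genes the groups overlapped in KYSE180 alone (852 genes), in KYSE150 alone (369), in both (32), or stood apart in opposite directions (1).

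Within the lines, 1110 genes were called higher (8.76%) and 936 lower (7.39%) in KYSE180, and 1624 higher (12.8%) and 1271 lower (10.0%) in KYSE150. The lines share no library. Genes called in the same direction in both numbered 739, which was 36.1% of the KYSE180 calls and 25.5% of the KYSE150 calls: 407 were higher (3.21%) and 332 lower (2.62%). Genes called in opposite directions numbered 47 (0.371%). Across the 12672 genes the changes in the lines had the same sign for 63.8% and correlated at r = 0.36 (Spearman's rho 0.41), as a description of genes that share their libraries. A further 631 genes were called on average and in neither line alone. The difference between the lines was called for 612 genes (4.83%), and for 175 (5.46%) of those called on average. Counts within a line depended on single libraries. The KYSE180 count of 2046 was 721, 1035 and 839 without native 1, overexpression 1 and overexpression 3, and 3709 without hairpin 2, which adds to the shared spread; the KYSE150 count of 2895 was 1483, 1457 and 1663 without native 1, 2 and 3. The difference count was 1199 without hairpin 2, 1050 and 1012 without KYSE180 native 2 and 3, and fell to between 158 and 362 without KYSE180 native 1, any overexpression library, any KYSE150 native or hairpin 3. Without hairpin 2 the average was called for 4308 genes, 3116 of the 3208 among them in the same direction.

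**Figure D1:**
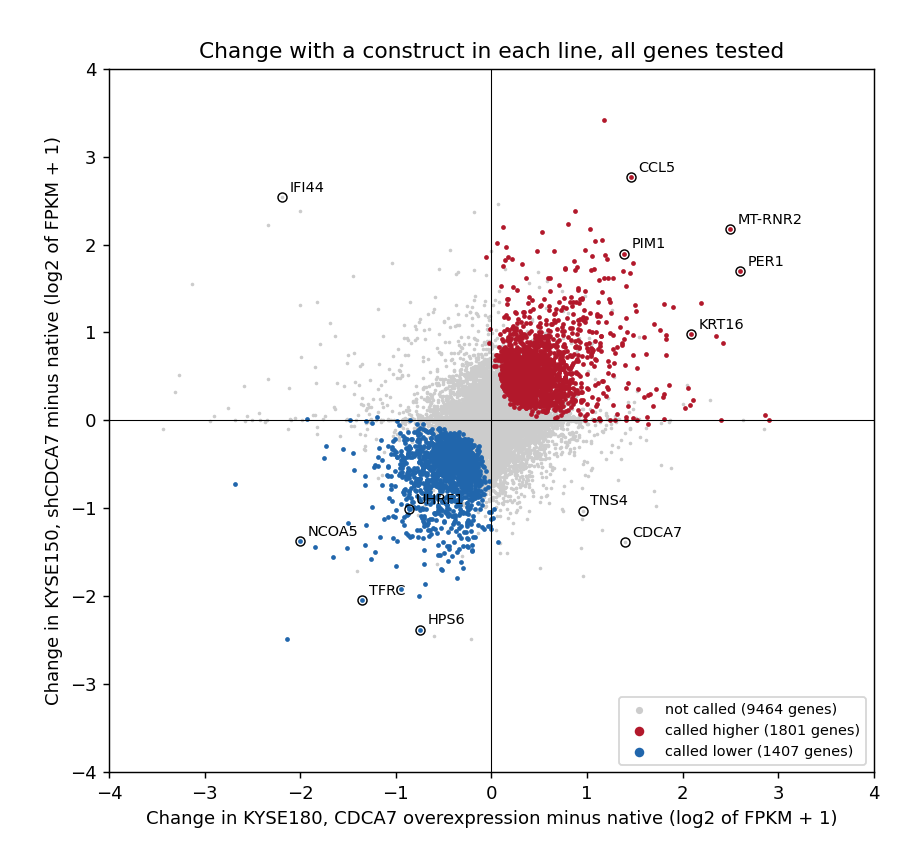
Log2 change of each of 12672 genes with overexpression in KYSE180 (horizontal axis) and with the hairpin in KYSE150 (vertical axis), both against native cells and on the log2(FPKM + 1) scale; each point is a gene, coloured by its call for the average. The 1801 higher and 1407 lower calls lie toward the upper right and the lower left, while CDCA7 lies at 1.40 and -1.39.

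The genes with the steadiest increase included inducible regulators. Genes were ranked by the smaller of the 2 within-line changes among called genes with a mean of at least 5 FPKM and no overlap in either line, and the first 12 in each direction are described; the mitochondrial MT-RNR2, first among the higher ones, stands with the other mitochondrial genes. PER1 (chr17:8140472-8156506, minus strand), a repressor of the circadian clock and an immediate target of cAMP and glucocorticoid signals, stood at 3.08, 2.62 and 4.12 FPKM in native KYSE180 and 26.4, 19.7 and 28.9 FPKM with overexpression. PER1 in KYSE150 had 7.81, 7.0 and 8.03 FPKM in native cells and 31.4, 18.1 and 34.2 FPKM with the hairpin. Every construct library was above every native one, hairpin 2 being the lowest of its group, and the average log2 change was 2.15 (SE 0.20, adjusted p = 8.8e-05), a 4.44-fold increase of FPKM + 1.

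GADD45B (chr19:2476122-2478259, plus strand), a stress sensor that binds MAP kinase kinases, was at 2.56, 3.63 and 3.89 FPKM in native KYSE180 and 12.5, 9.76 and 10.4 FPKM with overexpression. GADD45B in KYSE150 had 13.2, 13.5 and 14.8 FPKM in native cells and 51.1, 34.6 and 55.7 FPKM with the hairpin. Its lowest construct library in KYSE180 was still well above the highest native one. The average log2 change was 1.56 (SE 0.13, adjusted p = 4.45e-05). PIM1 (chr6:37170203-37175426, plus strand), a survival kinase induced by cytokines, was at 14.2, 13 and 12.2 FPKM in native KYSE180 and 42.9, 30.4 and 35.4 FPKM with overexpression. PIM1 in KYSE150 had 25.6, 23.4 and 25.3 FPKM in native cells and 119, 56.8 and 126 FPKM with the hairpin. Hairpin 2 was between the natives and the other hairpin libraries, as it was for PER1 and GADD45B, and the average log2 change was 1.64 (SE 0.18, adjusted p = 0.000194). NR1D1 (chr17:40092787-40100725, minus strand), the clock repressor REV-ERB alpha, was at 5.12, 4.49 and 4.04 FPKM in native KYSE180 and 14, 13.7 and 16.9 FPKM with overexpression. NR1D1 in KYSE150 had 11.3, 10.1 and 9.6 FPKM in native cells and 26.4, 21.1 and 30.8 FPKM with the hairpin. The groups were well separated in both lines, with an average log2 change of 1.38 (SE 0.11, adjusted p = 3.67e-05).

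DUSP1 (chr5:172768090-172771195, minus strand), a phosphatase that inactivates MAP kinases, was at 6.17, 5.73 and 8.49 FPKM in native KYSE180 and 21.1, 19.6 and 17.9 FPKM with overexpression. DUSP1 in KYSE150 had 8.24, 9.12 and 8.12 FPKM in native cells and 20.5, 16.5 and 24.3 FPKM with the hairpin. No libraries of the compared groups overlapped and the average log2 change was 1.29 (SE 0.12, adjusted p = 7.45e-05). ERRFI1 (chr1:8004404-8026308, minus strand), a feedback inhibitor of the EGF receptor, was at 2.17, 4.32 and 4.82 FPKM in native KYSE180 and 8.69, 9.32 and 9.17 FPKM with overexpression. ERRFI1 in KYSE150 had 8.8, 8.14 and 8.47 FPKM in native cells and 29.6, 25.4 and 28.4 FPKM with the hairpin. Its separation was wider in KYSE150, where the 3 hairpin libraries were close together, and its average log2 change was 1.36 (SE 0.14, adjusted p = 0.000148). HERPUD1 (chr16:56932048-56944863, plus strand), which takes part in the degradation of endoplasmic reticulum proteins, was at 14.5, 9.39 and 26.3 FPKM in native KYSE180 and 41.7, 37.5 and 36.5 FPKM with overexpression. HERPUD1 in KYSE150 had 16.4, 15.5 and 15.4 FPKM in native cells and 54.3, 44.7 and 52.9 FPKM with the hairpin. KYSE180 native 3 was the highest native library and still below all of the overexpression ones, and the average log2 change was 1.44 (SE 0.18, adjusted p = 0.000409). SAT1, which catabolises polyamines, and HBP1, a repressor of cell cycle genes, completed the protein-coding genes at this end of the ranking, with average log2 changes of 1.16 (SE 0.18, adjusted p = 0.00102) and 1.16 (SE 0.12, adjusted p = 0.000125).

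The genes with the steadiest decrease had other roles. ZC3H4 (chr19:47064187-47113752, minus strand), a restriction factor that ends non-coding transcription early, fell from 12.8, 11 and 11.1 FPKM in native KYSE180 to 2.5, 2.69 and 2.32 FPKM with overexpression, and from 5.13, 6.51 and 5.72 FPKM in native KYSE150 to 1.4, 1.44 and 1.66 FPKM with the hairpin. Neither line came near to an overlap, and the average log2 change was -1.64 (SE 0.10, adjusted p = 6.72e-06). PPP1R10 (chr6:30600400-30618612, minus strand), also called PNUTS, the scaffold of a phosphatase that slows RNA polymerase at the end of genes, fell from 12.5, 11.9 and 19 to 5.04, 6.44 and 4.7 FPKM in KYSE180 and from 7.05, 8.32 and 7.48 to 1.7, 2.06 and 1.91 FPKM in KYSE150. All construct libraries were lower, with an average log2 change of -1.42 (SE 0.12, adjusted p = 7.45e-05).

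NCOA5 (chr20:46060985-46089952, minus strand), a nuclear receptor coregulator, was at 25.9, 28.5 and 14.5 FPKM in native KYSE180 and 4.38, 5.39 and 4.55 FPKM with overexpression. NCOA5 in KYSE150 had 6.75, 6.85 and 5.85 FPKM in native cells and 2.18, 1.86 and 1.63 FPKM with the hairpin. KYSE180 native 3 had the lowest native level and was still above all overexpression libraries; the average log2 change was -1.69 (SE 0.17, adjusted p = 0.000109). TFRC (chr3:196027183-196082189, minus strand), the transferrin receptor by which cells take up iron, was at 89.9, 113 and 57.2 FPKM in native KYSE180 and 30.7, 36.5 and 29.6 FPKM with overexpression. TFRC in KYSE150 had 90.02, 85.4 and 80.4 FPKM in native cells and 15.9, 26.4 and 18.8 FPKM with the hairpin. KYSE180 native 3 was again the lowest native library without reaching the construct libraries, and the average log2 change was -1.7 (SE 0.19, adjusted p = 0.000175). FAM111B, a protease of dividing cells, and EIF5, which promotes GTP hydrolysis on the initiating ribosome, had average log2 changes of -1.37 (SE 0.19, adjusted p = 0.00057) and -1.12 (SE 0.14, adjusted p = 0.000307). B3GALT6, a galactosyltransferase of proteoglycan synthesis, and TELO2, which stabilises PI3K-related kinases, followed with -1.18 (SE 0.18, adjusted p = 0.00101) and -1.01 (SE 0.28, adjusted p = 0.0188). TELO2 was at 11.5, 2.19 and 11.1 FPKM in the hairpin libraries, so hairpin 2 alone was far below the natives (15.2, 15.6 and 13.8 FPKM); without it the average was -0.72.

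**Figure D2:**
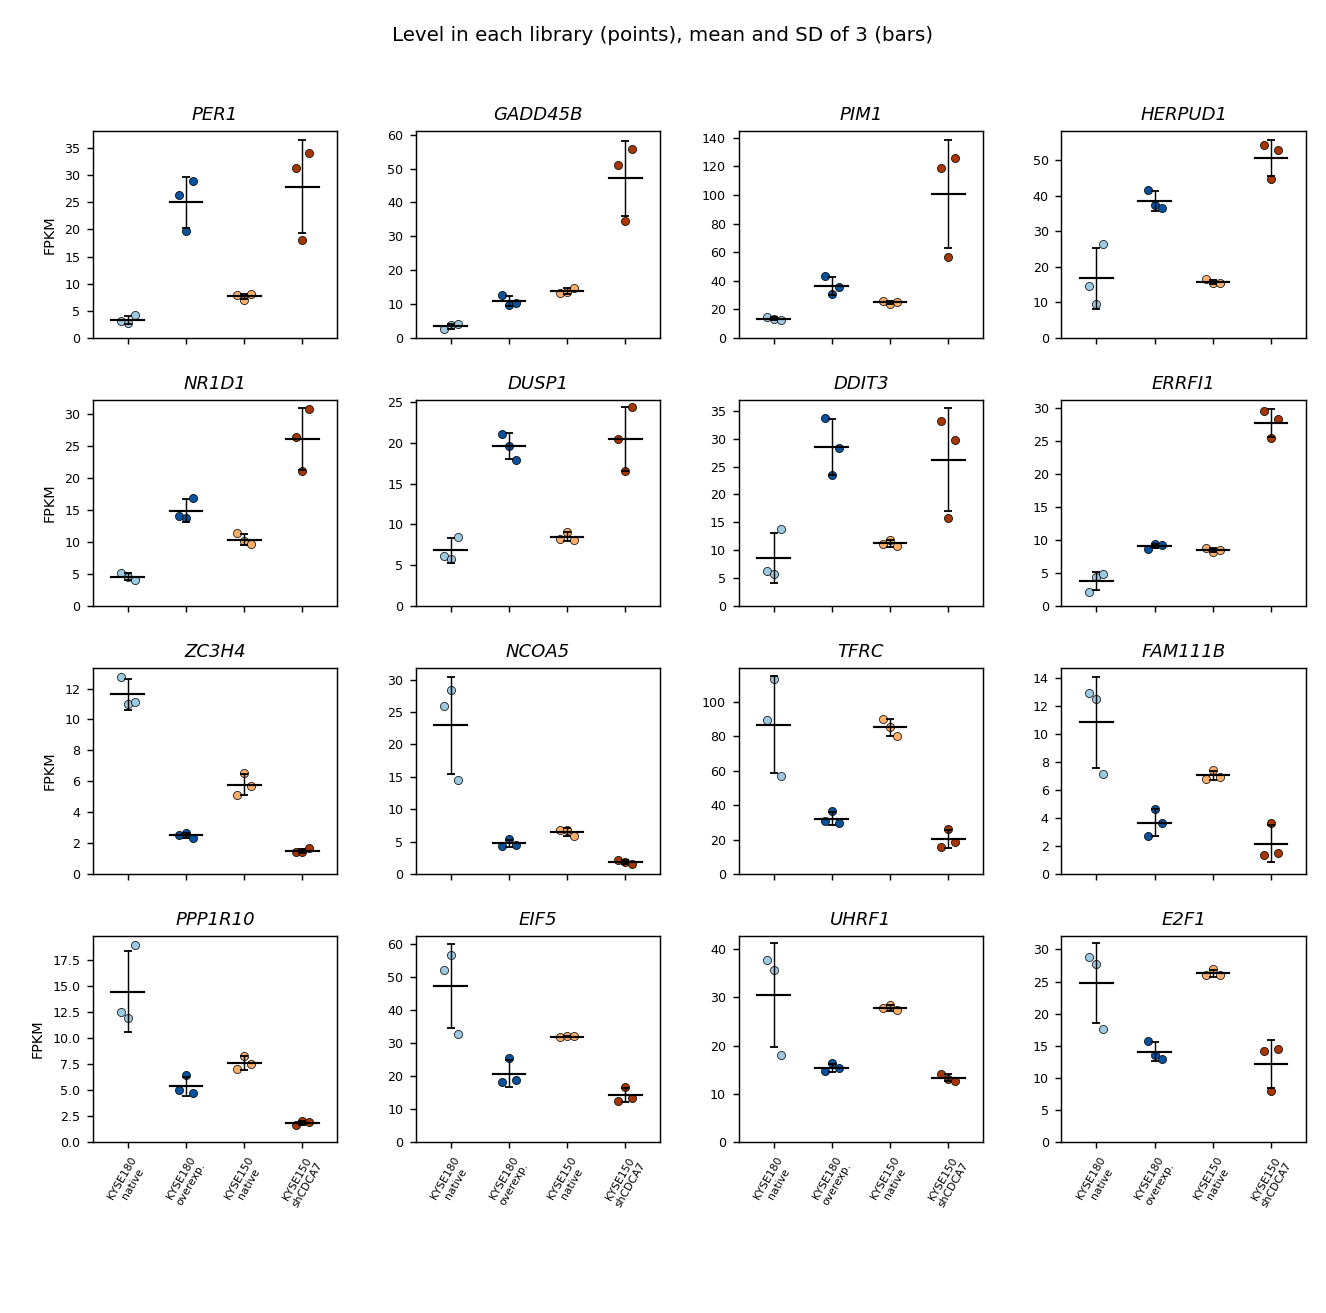
FPKM of 16 genes in each of the 12 libraries, grouped on the horizontal axis as KYSE180 native, KYSE180 overexpression, KYSE150 native and KYSE150 shCDCA7; points are libraries, bars the mean and SD of 3, and each panel has its own vertical axis from 0. In both lines the construct libraries lie above the natives for the 8 genes of the upper panels and below them for the 8 genes of the lower panels, UHRF1 and E2F1 included.

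The same ranking also named 4 microRNA loci and 2 less known genes. In these libraries a microRNA row counts fragments of the precursor's locus in total RNA and does not measure the mature microRNA. MIR324 rested on 1 to 23 reads per library and MIR616, which lies inside the span of DDIT3 on the same strand, on 4 to 35; their average log2 changes were 1.54 (SE 0.33, adjusted p = 0.00587) and 1.59 (SE 0.34, adjusted p = 0.00545). MIR570 was listed at 30.6, 21.1 and 19.3 FPKM in native KYSE180 and 8.29, 7.48 and 6.71 FPKM with overexpression, and at 2.89, 1.06 and 1.55 FPKM in native KYSE150 and 0 in all hairpin libraries, on 51 reads at most. MIR4664 (39 reads at most) was listed at 23.8, 16.7 and 10.002 and 1.74, 7.07 and 1.53 FPKM in KYSE180 and at 25.7, 21.7 and 22.5 and 8.91, 0 and 7.21 FPKM in KYSE150, and its neighbour IQANK1 had an average log2 change of -1.25 (SE 0.16, adjusted p = 0.00043). The unnamed locus AC245041.1 had -1.09 (SE 0.18, adjusted p = 0.00162). Among the 75 microRNA loci tested, 9 were called higher and 5 lower, shares below the 14.2% and 11.1% of all genes.

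Among called genes whose groups overlapped in 1 line, the chemokine CCL5 rose in KYSE150 from 0.340, 1.05 and 0.893 FPKM to 15.4, 6.43 and 12.5 FPKM. In KYSE180 it was at 10.8, 97 and 14 FPKM in native and 73.7, 62 and 76 FPKM in overexpressing cells, native 2 being the highest library of all. Its average log2 change was 2.11 (SE 0.46, adjusted p = 0.00635). PRKAR1B, a regulatory subunit of protein kinase A, was at 13.6, 14.8 and 6.1 FPKM in native KYSE180 and 6.39, 5.38 and 4.44 FPKM with overexpression. PRKAR1B in KYSE150 had 23.8, 23.1 and 22.1 FPKM in native cells and 10.04, 7.34 and 9.45 FPKM with the hairpin. KYSE180 native 3 fell among the overexpression libraries, and the average log2 change was -1.09 (SE 0.18, adjusted p = 0.00168). The other such genes were short or lightly covered loci: MIR205 (5 to 78 reads, average log2 change 1.65), AC005326.1 (70 reads at most, 1.76), RF00569 (36 at most, 2.3), and the pseudogenes PDIA3P2 and RNU6-722P, which had at most 10 and 8 reads and none in any hairpin library.

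Most immediate-early genes tested were called higher. Of 32 tested, 22 were called higher, 10 did not pass and none was called lower (all genes: 14.2% and 11.1%). At an unadjusted p under 0.05 in limma, 4936 of the 12672 genes passed. For 17 of the 22 the groups did not overlap in either line (all genes: 8.88% called higher and apart). The median change of the list was 0.92 (0.91 in KYSE180 and 0.64 in KYSE150), against 0.03 over all genes tested. The average was above 0 for 29 members and below 0 for 3, and the difference between lines was called for 5. Besides GADD45B and DUSP1, the largest were CYR61, a secreted matrix protein and YAP target, with 1.38 (SE 0.21, adjusted p = 0.00117), and DUSP5, a nuclear ERK phosphatase, with 1.23 (SE 0.13, adjusted p = 0.000148). CYR61 was at 13.9, 8.44 and 25.2 FPKM in native KYSE180 and 30.8, 31.7 and 30.1 FPKM with overexpression. CYR61 in KYSE150 had 539.8, 470.2 and 505 FPKM in native cells and 1809, 1326 and 1860.0 FPKM with the hairpin. Its level was far higher in KYSE150, and construct libraries were the higher ones in each line.

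JUNB, an AP-1 subunit, was at 159, 83.2 and 163 FPKM in native KYSE180 and 388, 293 and 319 FPKM with overexpression. JUNB in KYSE150 had 116, 115 and 132 FPKM in native cells and 347, 136 and 344 FPKM with the hairpin. Hairpin 2 exceeded the highest native library by little, and the average log2 change was 1.21 (SE 0.24, adjusted p = 0.00371). PPP1R15A, the stress-induced subunit that directs dephosphorylation of eIF2 alpha and is no member of the list, followed the same order, with 51.9, 51.2 and 47.7 FPKM in native KYSE150 and 184, 61.2 and 211 FPKM with the hairpin, and an average log2 change of 1.17 (SE 0.25, adjusted p = 0.00543). MYC, the growth regulator, was at 97.9, 77.4 and 121 FPKM in native KYSE180 and 151, 148 and 163 FPKM with overexpression, and at 11.6, 10.1 and 10.3 FPKM in native KYSE150 and 26.8, 19.97 and 32.6 FPKM with the hairpin, with no overlap and an average log2 change of 0.93 (SE 0.15, adjusted p = 0.00129). BTG2, an antiproliferative gene that is also a p53 target, and IER3, which counters death signals, had 0.92 (SE 0.09, adjusted p = 0.000125) and 1.13 (SE 0.29, adjusted p = 0.0136), the hairpin and native libraries of IER3 overlapping. EGR1, a zinc finger factor of the class, did not pass. It was at 148, 76.4 and 173 FPKM in native KYSE180 and 197, 227 and 223 FPKM with overexpression, and at 80.6, 95.5 and 102 FPKM in native KYSE150 and 111, 46.8 and 102 FPKM with the hairpin, with an average of 0.29 (SE 0.26, adjusted p = 0.431).

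Promoter sequences of 8899 of the 12672 genes were matched in RefSeq (GRCh38.p14) by Ensembl gene ID or, failing that, by symbol. Each runs from 250 bases before to 50 bases after the annotated start. The match covers 70.2% of the genes, too few for a comparison of motif shares between called and other genes, which is void. Shares of the CCAAT box and of the E2F-type motif are given below for lists with at least 80% of their tested members matched. For the CCAAT box the cholesterol and fatty acid list, which falls short of that, is added. Sequences are shown for members of lists with many calls in 1 direction, 5′ to 3′ on the gene's strand, with 7 motifs in capitals, searched on both strands. These are the E-box with the letters CACGTG, the core of the cAMP response element (CRE) with TGACGT, the CCAAT box, the TATA box with the letters TATAAA, the GC box with GGGCGG, the AP-1 motif with TGACTCA and an E2F-type motif with TTCCCGC. Overlapping matches form 1 run of capitals. Of 27305 RefSeq promoters, 7.43% hold the E-box, 8.32% the CRE core, 35.7% the CCAAT box, 11.95% the TATA box, 44.6% the GC box, 4.92% the AP-1 motif and 6.56% the E2F-type motif. A match is a description of letters and not evidence of a bound site.

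The DUSP1 and PER1 promoters are shown as those of inducible genes that rose with both constructs. In the first, CRE cores start at -172, -125 and -123 from the start of transcription, an E-box at -108 and a TATA box at -30; in the second, an E-box starts at -173.
DUSP1 promoter, chr5:172771146-172771445, minus strand: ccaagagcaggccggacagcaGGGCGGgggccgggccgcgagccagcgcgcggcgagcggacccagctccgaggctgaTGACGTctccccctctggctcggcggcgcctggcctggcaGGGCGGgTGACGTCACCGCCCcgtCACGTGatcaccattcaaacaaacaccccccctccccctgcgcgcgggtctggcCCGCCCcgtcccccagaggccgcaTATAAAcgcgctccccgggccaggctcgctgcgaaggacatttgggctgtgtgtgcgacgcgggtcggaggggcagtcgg
PER1 promoter, chr17:8152355-8152654, minus strand: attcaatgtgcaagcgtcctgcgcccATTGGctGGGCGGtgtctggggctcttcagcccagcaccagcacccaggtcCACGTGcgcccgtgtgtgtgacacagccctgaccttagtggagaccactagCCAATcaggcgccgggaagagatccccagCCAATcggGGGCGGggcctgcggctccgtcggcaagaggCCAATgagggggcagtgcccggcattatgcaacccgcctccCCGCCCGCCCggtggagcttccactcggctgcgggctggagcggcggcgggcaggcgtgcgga

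Clock genes and EGF receptor feedback genes had higher calls and no lower ones (all genes: 14.2% higher and 11.1% lower). Of 17 clock genes tested, 8 were called higher and none lower (lower 1 without hairpin 2), 9 did not pass, and the median was 0.34 (0.58 in KYSE180 and 0.19 in KYSE150); the difference between lines was called for 3. Besides PER1 and NR1D1 these included BHLHE40, a repressor of the clock that is also induced by TGF-beta, at 14.7, 14.5 and 11.4 FPKM in native KYSE180 and 25.4, 22.8 and 27.2 FPKM with overexpression. BHLHE40 in KYSE150 had 11.5, 12.1 and 10.9 FPKM in native cells and 25.1, 19.999 and 26.8 FPKM with the hairpin. No groups overlapped and the average log2 change was 0.92 (SE 0.10, adjusted p = 0.000148). Of 17 EGF receptor ligands and feedback regulators, 5 were called higher (8 without KYSE180 native 2) and none lower, 12 did not pass, and the difference between lines was called for 4. DUSP6 and ETV5, targets of ERK signalling, had groups apart in both lines, with log2 changes of 1.73 in KYSE180 and 0.36 in KYSE150, and of 1.64 in KYSE180 and 0.29 in KYSE150. The difference between lines was itself called for each in limma, at 1.37 (SE 0.24, adjusted p = 0.012) and 1.34 (SE 0.23, adjusted p = 0.0116). Their relatives DUSP4 and ETV4 did not pass, with 0.29 and 1.15 in KYSE180 and -0.27 and -0.36 in KYSE150. ERK activity was not tested. HBEGF, a ligand of the receptor, had 0.68 (SE 0.13, adjusted p = 0.00371), and its KYSE180 groups overlapped. Of 19 glucocorticoid-responsive genes, 8 were called higher (5 without overexpression 3) and none lower; PER1, ERRFI1 and DUSP1 are in this list too, and next came NFKBIA at 0.90 (SE 0.17, adjusted p = 0.00305).

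Genes of the TGF-beta pathway, the subject of the series, are given as overlapping lists of response genes and of pathway components. SKIL and TGIF1 are in both lists and count as higher in each, and SMAD7 is in both as well. Of 29 response genes, 11 were called higher and none lower (lower 1 without KYSE180 native 2), with a median of 0.26. The other 18 did not pass, SMAD7 among them. The 4 with the largest change were CYR61, JUNB, PPP1R15A and IER3, of which CYR61, JUNB and IER3 are also counted as immediate-early genes. Of 25 ligands, receptors, SMADs and their regulators, 4 were called higher and 1 lower, a share close to the background; 2 were called higher without overexpression 2 or KYSE150 native 3, and 7 without hairpin 2. TGIF1 and SKIL, nuclear corepressors of SMAD complexes, rose, with 0.64 (SE 0.10, adjusted p = 0.000946) and 0.56 (SE 0.12, adjusted p = 0.00485). SKI, the relative of SKIL, fell, with -0.31 (SE 0.08, adjusted p = 0.0164); its groups overlapped in KYSE180 (14.4, 13.4 and 12.2 FPKM in native, 10.7, 12.4 and 11.9 FPKM in overexpressing cells).

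SMAD4, the common partner of receptor-activated SMADs, was at 4.38, 3.98 and 3.86 FPKM in native KYSE180 and 5.34, 5.16 and 4.42 FPKM with overexpression. SMAD4 in KYSE150 had 0.695, 0.525 and 0.655 FPKM in native cells and 0.945, 0.980 and 1.03 FPKM with the hairpin. Construct libraries were higher in both lines, without overlap. The average log2 change was 0.26 (SE 0.08, adjusted p = 0.0249). The call was lost without overexpression 2, KYSE150 native 2, KYSE150 native 3 or hairpin 3 (adjusted p from 0.019 to 0.0659 over the 12 fits that leave out 1 library). SMAD4 was also not called on scaling to total reads, with replicate number as a block or with the trend on GC content removed. SMAD7, the inhibitor that the pathway induces, was at 0.717, 0.866 and 0.534 FPKM in native KYSE180 and 1.57, 1.09 and 1.14 FPKM with overexpression. SMAD7 in KYSE150 had 3.15, 3.35 and 3.15 FPKM in native cells and 4.12, 1.87 and 3.98 FPKM with the hairpin. It was higher in all overexpression libraries, while hairpin 2 lay below the KYSE150 natives and hairpins 1 and 3 above them. Its average of 0.20 (SE 0.15, adjusted p = 0.342) did not pass, and without hairpin 2 it was 0.34 with an adjusted p of 0.0111.

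Epithelial and mesenchymal genes did not move against each other on average, but their higher calls were spread differently over the lines. In KYSE180, 4 of 36 epithelial adhesion and 4 of 15 mesenchymal genes were called higher, against 8.76% of all genes. In KYSE150 these counts were 14 and 1, against 12.8%. The difference between lines was itself called for 2 epithelial genes, near the 4.83% of all genes, and for 3 mesenchymal ones. The KYSE180 and KYSE150 medians were 0.18 and 0.39 for the epithelial list and 0.22 and 0.02 for the mesenchymal list. Called lower were 1 and 2 epithelial genes and no mesenchymal one. Of 36 epithelial adhesion genes, 15 were called higher and 2 lower (all genes: 14.2% and 11.1%), with a median of 0.32. The groups did not overlap in either line for 5 and 1 of them (all genes: 8.88% higher and 6.54% lower). NECTIN4 and CLDN4, proteins of adherens and tight junctions, had average changes of 1.2 (SE 0.29, adjusted p = 0.00988) and 0.90 (SE 0.24, adjusted p = 0.0162), both with overlapping groups in KYSE180. F11R, a tight junction receptor, was at 25.1, 23.6 and 26.5 FPKM in native KYSE180 and 54.2, 36.4 and 39.4 FPKM with overexpression. F11R in KYSE150 had 16.4, 17.1 and 15.4 FPKM in native cells and 26.5, 22.6 and 26.1 FPKM with the hairpin. It was higher in every construct library, with an average of 0.67 (SE 0.10, adjusted p = 0.00102). The desmosomal PKP3 and the epithelial splicing factor ESRP2 were the 2 lower members, with -0.71 (SE 0.16, adjusted p = 0.00758) and -0.40 (SE 0.08, adjusted p = 0.00385). Of 15 mesenchymal genes 3 were called higher and none lower (1 without KYSE180 native 1 or overexpression 3, and 5 without hairpin 2), and none had groups apart in both lines. MMP2, a gelatinase, went from 2.25, 3.67 and 4.09 FPKM to 16.9, 17.1 and 16.8 FPKM in KYSE180, and was at 7.87, 6.83 and 7.02 FPKM in native KYSE150 and 7.81, 9.07 and 7.99 FPKM with the hairpin. The rise in KYSE180 differed from the change in KYSE150 by 1.9 (SE 0.21, adjusted p = 0.00159). Fibronectin, FN1, did not pass (0.18 (SE 0.18, adjusted p = 0.485)); it was under 1 FPKM in every KYSE180 library and at 6.03, 6.16 and 5.83 FPKM in native KYSE150 and 6.25, 13 and 7.77 FPKM with the hairpin.

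Of 23 genes of basal squamous cells, 9 were called higher and none lower, with a median of 0.38. Keratin 16, KRT16, a keratin of activated epidermis, was at 7.22, 31.4 and 4.88 FPKM in native KYSE180 and 59.2, 40.4 and 47.5 FPKM with overexpression. KRT16 in KYSE150 had 3.55, 3.91 and 5.13 FPKM in native cells and 10.8, 8.21 and 8.6 FPKM with the hairpin. Native 2 of KYSE180 was far above the other natives and below the overexpression libraries; the average log2 change was 1.53 (SE 0.36, adjusted p = 0.00872). NGFR, a marker of basal stem cells, and KRT17 had 1.38 (SE 0.24, adjusted p = 0.00222) and 1.13 (SE 0.20, adjusted p = 0.00222), and ITGA6, an integrin of hemidesmosomes, had 0.89 (SE 0.23, adjusted p = 0.0135) with overlapping groups in KYSE150, where hairpin 2 alone was high (46.6, 94.7 and 48.6 FPKM). Of 17 squamous differentiation genes 2 were called higher and none lower, and 1 without KYSE180 native 1 or overexpression 3 (lower 1 without KYSE180 native 2). Their share of higher calls was below the 14.2% of all genes. Reads of keratin genes with near-identical copies, KRT16 and KRT17 among them, may have been split between copies.

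Some genes of the endoplasmic reticulum stress response and some p53 targets were called higher (all genes: 14.2% higher and 11.1% lower). Of 36 genes of the unfolded protein and amino acid response, 13 were called higher and 1 lower (the lower call was lost in 5 of the 12 fits without 1 library, each of which left out a KYSE150 native, hairpin 1 or hairpin 3), and the groups of 11 higher ones did not overlap in either line. Among all genes tested, 8.88% were called higher with groups apart in both lines. DDIT3 (CHOP), a death-promoting factor of this response, was at 6.32, 5.64 and 13.9 FPKM in native KYSE180 and 33.7, 23.6 and 28.3 FPKM with overexpression. DDIT3 in KYSE150 had 11.1, 11.8 and 10.7 FPKM in native cells and 33.2, 15.8 and 29.8 FPKM with the hairpin. Hairpin 2 was again nearest the natives, and the average log2 change was 1.4 (SE 0.23, adjusted p = 0.00144). HSPA5 (BiP), the main chaperone of the endoplasmic reticulum, was at 248, 259.8 and 539 FPKM in native KYSE180 and 939.8, 784 and 819 FPKM with overexpression, and at 519.7, 481 and 484 FPKM in native KYSE150 and 951, 829 and 916 FPKM with the hairpin, with KYSE180 native 3 the highest native library and an average of 1.11 (SE 0.18, adjusted p = 0.00144). In the promoters of this list 24 of 32 hold the CCAAT box (75%), against 37.3% of those of matched tested genes. The share was higher in the mitosis list, at 82.05% (32 of 39), and ran from 21.05% to 57.1% in the other lists with at least 80% matched, G1/S (24 of 42) and the clock (8 of 14) being at the upper end. In the cholesterol and fatty acid list, matched less fully (24 of 31), 16 of 24 promoters (66.67%) hold it. The HERPUD1 promoter, shown for its place in the list, has this box on the opposite strand starting at -117 and on its own strand at -83, and a TATA box at -29.
HERPUD1 promoter, chr16:56931892-56932191, plus strand: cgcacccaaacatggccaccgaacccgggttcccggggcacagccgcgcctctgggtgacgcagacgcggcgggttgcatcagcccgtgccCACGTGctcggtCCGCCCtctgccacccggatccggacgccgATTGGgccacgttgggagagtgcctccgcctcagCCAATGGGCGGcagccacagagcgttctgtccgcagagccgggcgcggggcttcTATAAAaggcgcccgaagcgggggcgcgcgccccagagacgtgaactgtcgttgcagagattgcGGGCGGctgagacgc

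Of 26 p53 targets 10 were called higher and 1 lower (lower 2 without KYSE180 native 2 or overexpression 2), and 15 did not pass, with a median of 0.30. The shares over all genes were 14.2% higher and 11.1% lower. Activity of p53 was not tested. GADD45A, a stress gene that blocks the cell cycle, was at 5.68, 12.1 and 8.92 FPKM in native KYSE180 and 23.5, 16.3 and 18 FPKM with overexpression. GADD45A in KYSE150 had 17.1, 15 and 16 FPKM in native cells and 76.9, 28 and 76.9 FPKM with the hairpin. The construct libraries were higher throughout, with an average of 1.4 (SE 0.25, adjusted p = 0.00248). PMAIP1 (NOXA), a death-promoting BCL2 relative, and CDKN1A (p21), an inhibitor of cyclin-dependent kinases, had 1.34 (SE 0.23, adjusted p = 0.00184) and 0.92 (SE 0.17, adjusted p = 0.00243); hairpin 2 of CDKN1A was level with the natives (15.1, 14.8 and 13.7 FPKM in native KYSE150, 29.4, 14.7 and 27.3 FPKM with the hairpin). TP53I3, an oxidoreductase, was the lower member, with -0.64 (SE 0.13, adjusted p = 0.00549). Of 17 death receptor genes, 5 were called lower, all with groups apart in both lines (all genes: 6.54%). A further 1 was called higher, a call that was lost in 6 of the 12 fits without 1 library (KYSE180 native 2, any KYSE150 native, hairpin 1 or hairpin 3). RIPK1, the kinase that couples these receptors to NF-kappaB or to cell death, was at 14.3, 10.9 and 9.61 FPKM in native KYSE180 and 3.51, 4.92 and 4.43 FPKM with overexpression. RIPK1 in KYSE150 had 5.74, 7.04 and 6.5 FPKM in native cells and 2.32, 3.28 and 2.69 FPKM with the hairpin. It was lower in every construct library, with -1.12 (SE 0.12, adjusted p = 0.000145). The adaptor FADD, the necroptosis effector MLKL and the protease CASP8 had -1.07 (SE 0.24, adjusted p = 0.00687), -0.85 (SE 0.13, adjusted p = 0.00111) and -0.49 (SE 0.07, adjusted p = 0.00111).

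**Figure D3:**
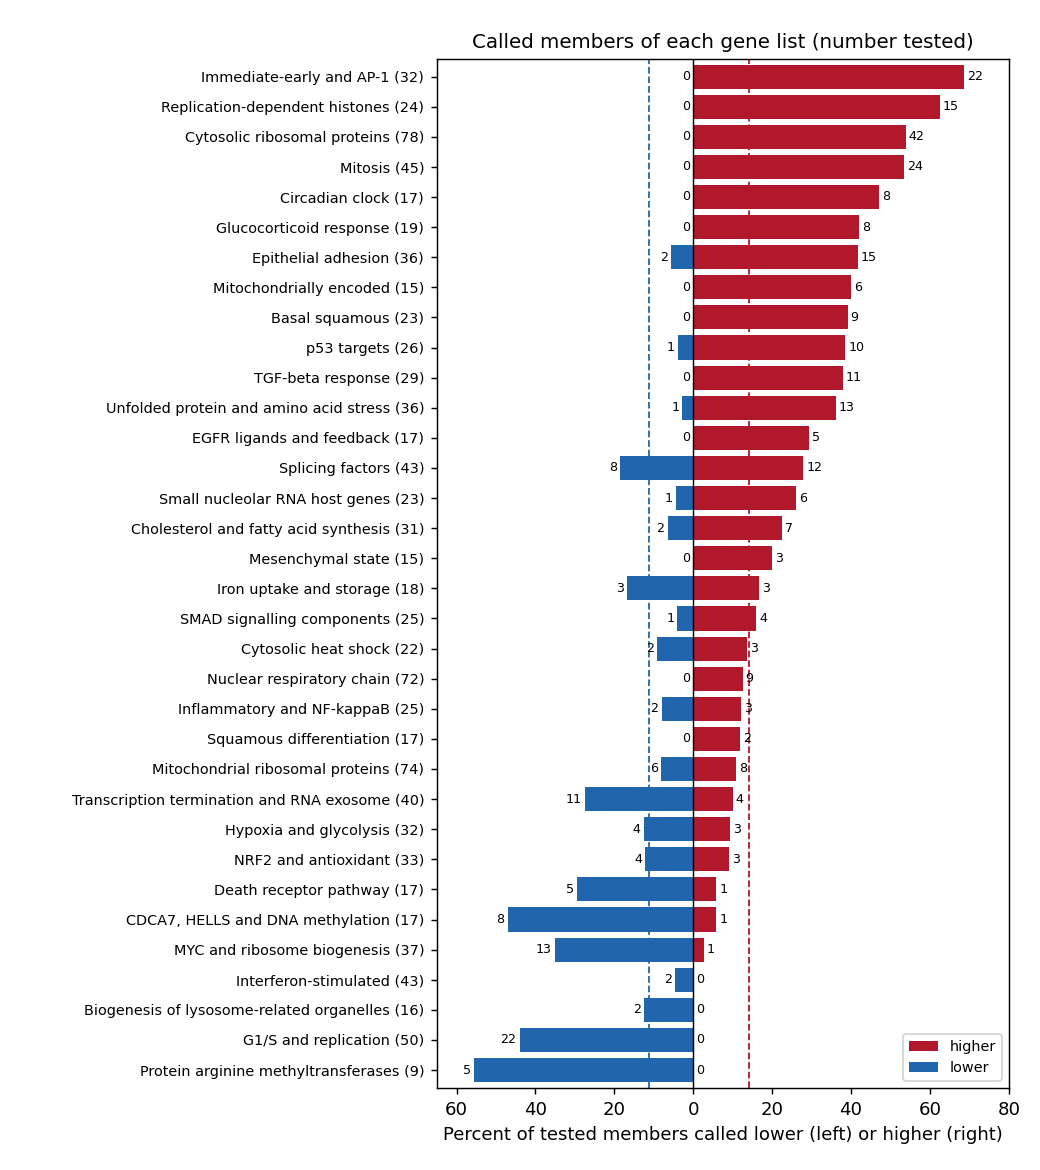
Percent of the tested members of each gene list called higher (bars to the right) or lower (bars to the left) for the average over both lines; the number tested is given beside each list and the vertical lines mark the shares over all genes, 14.2% and 11.1%. Immediate-early genes (22 of 32 higher) and histones (15 of 24) lie at the top, and the 50 genes of G1/S and replication have lower calls only, 22 of them.

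Cell cycle genes split by phase (all genes: 14.2% called higher and 11.1% lower). Of 50 genes of G1/S and DNA replication 22 were called lower and none higher, with a median of -0.39 (-0.31 in KYSE180 and -0.42 in KYSE150); 34 were called lower without KYSE180 native 3, the native library nearest to the overexpression ones. Of 45 genes of mitosis 24 were called higher and none lower (lower 2 without KYSE180 native 3), with a median of 0.39. The groups of 18 of these did not overlap in either line (all genes: 8.88% called higher and apart). Relative to the native mean of the line, the median of the G1/S list was 0.18, 0.20 and -0.37 in KYSE180 natives, -0.31, -0.30 and -0.32 in overexpression libraries, -0.00, 0.02 and -0.03 in KYSE150 natives and -0.50, -0.27 and -0.50 in hairpin libraries. For the mitosis list the same medians were 0.05, 0.26 and -0.31, then 0.43, 0.43 and 0.44, then -0.04, -0.01 and 0.05, then 0.27, 0.66 and 0.26. Both lists thus held apart construct and native libraries in each line, except that KYSE180 native 3 lay just below the overexpression libraries for G1/S.

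E2F1, which drives entry into S phase, was at 28.9, 27.7 and 17.6 FPKM in native KYSE180 and 15.7, 13.6 and 13 FPKM with overexpression. E2F1 in KYSE150 had 26, 26.9 and 26 FPKM in native cells and 14.2, 7.94 and 14.6 FPKM with the hairpin. Hairpin 2 was the lowest library, and the average log2 change was -0.91 (SE 0.16, adjusted p = 0.00207). MCM10, a replication initiator, CHAF1A, a histone chaperone at the fork, and FEN1, the flap nuclease, had -0.82 (SE 0.17, adjusted p = 0.00459), -0.75 (SE 0.13, adjusted p = 0.00183) and -0.75 (SE 0.14, adjusted p = 0.00249). PTTG1 (securin), which guards sister chromatids, was at 46, 55.9 and 45.9 FPKM in native KYSE180 and 137, 93.7 and 103 FPKM with overexpression. PTTG1 in KYSE150 had 42.9, 43.7 and 50.7 FPKM in native cells and 90.9, 83.4 and 95 FPKM with the hairpin. It was higher in every construct library, with 1.05 (SE 0.11, adjusted p = 0.000125). KIF2C, a kinesin that depolymerises microtubules, DLGAP5 and TPX2, spindle proteins, had 0.95 (SE 0.09, adjusted p = 9.08e-05), 0.89 (SE 0.17, adjusted p = 0.00331) and 0.81 (SE 0.16, adjusted p = 0.00385). Of the promoters of the G1/S list, 42 of 50 were matched, and 19 (45.2%) hold the E2F-type motif against 10.9% of those of matched tested genes. In the DNA methylation list 5 of 16 (31.25%) hold it, and in the other lists with at least 80% matched at most 21.2% do. The promoters of CHAF1A, a member of the G1/S list, and of UHRF1, a member of the DNA methylation list, are shown for these motifs, which start at -7 in the first, and at -104 and, on the opposite strand, -14 in the second.
CHAF1A promoter, chr19:4402390-4402689, plus strand: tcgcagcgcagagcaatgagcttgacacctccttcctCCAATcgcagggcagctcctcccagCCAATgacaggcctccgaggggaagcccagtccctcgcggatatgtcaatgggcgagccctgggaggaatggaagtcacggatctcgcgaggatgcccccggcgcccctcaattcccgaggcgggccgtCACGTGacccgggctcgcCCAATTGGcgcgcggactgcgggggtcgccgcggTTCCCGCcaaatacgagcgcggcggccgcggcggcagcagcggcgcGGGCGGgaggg
UHRF1 promoter, chr19:4909251-4909550, plus strand: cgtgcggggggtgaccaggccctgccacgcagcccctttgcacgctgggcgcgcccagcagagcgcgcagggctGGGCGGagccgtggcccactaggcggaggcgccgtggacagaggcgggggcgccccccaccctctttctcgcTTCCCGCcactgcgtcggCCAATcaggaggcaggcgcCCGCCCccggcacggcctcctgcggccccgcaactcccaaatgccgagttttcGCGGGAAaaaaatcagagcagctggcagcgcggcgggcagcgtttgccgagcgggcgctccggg

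Of 24 replication-dependent histone genes 15 were called higher and none lower (all genes: 14.2% and 11.1%), with a median of 0.62, in libraries where the G1/S genes were lower. HIST2H2BE was at 2.94, 2.11 and 4.67 FPKM in native KYSE180 and 6.45, 6.46 and 6.78 FPKM with overexpression, and at 2.92, 2.25 and 2.1 FPKM in native KYSE150 and 17.3, 11.5 and 23.5 FPKM with the hairpin, an average of 1.63 (SE 0.27, adjusted p = 0.00157). HIST1H2AE, HIST1H3H and HIST1H2BJ followed with 1.21 (SE 0.25, adjusted p = 0.00433), 1.21 (SE 0.13, adjusted p = 0.000194) and 1.16 (SE 0.18, adjusted p = 0.0011). Histone genes share sequence, and reads may have been split between copies; the levels of HIST1H2AE rest on 4 to 80 reads per library.

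Genes that place, keep, read or remove DNA methylation, a wider set than the partners of CDCA7, were more often called lower than higher. Of 17 such genes, 8 were called lower and 1 higher (all genes: 11.1% lower and 14.2% higher), with a median of -0.23. On leaving out KYSE180 native 1, overexpression 1, KYSE150 native 3 or hairpin 1, 5 were lower. HELLS, whose call depended on single libraries, was among the lower ones. UHRF1, which reads hemimethylated DNA at the replication fork, was at 37.7, 35.7 and 18 FPKM in native KYSE180 and 14.7, 16.4 and 15.3 FPKM with overexpression. UHRF1 in KYSE150 had 27.8, 28.4 and 27.3 FPKM in native cells and 14.1, 13.1 and 12.8 FPKM with the hairpin. KYSE180 native 3 was near the overexpression libraries but above them, and the average log2 change was -0.94 (SE 0.15, adjusted p = 0.00121). DNMT1, the maintenance methyltransferase, was at 18, 17.1 and 13.5 FPKM in native KYSE180 and 10.7, 12.3 and 13.1 FPKM with overexpression, and at 31.4, 30.9 and 29.3 FPKM in native KYSE150 and 20.2, 22.6 and 21.2 FPKM with the hairpin, with -0.45 (SE 0.09, adjusted p = 0.00366). MBD3, a subunit of the NuRD complex, had -1.07 (SE 0.17, adjusted p = 0.00129), and PCNA, the sliding clamp, which is in the G1/S list as well, -0.45 (SE 0.11, adjusted p = 0.0131). MBD2, a reader of methylated DNA, was the higher member, with 0.57 (SE 0.12, adjusted p = 0.00534).

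For the average over both lines, biogenesis factors of the ribosome had mainly lower calls and ribosomal proteins higher ones. Within the lines, ribosomal proteins were called higher mainly in KYSE180. The lists were not tested against each other. For the average, 14.2% of all genes were called higher and 11.1% lower. Of 37 MYC targets and biogenesis factors 13 were called lower, with a median of -0.29, 23 did not pass, and 1, MYC itself, was called higher (2 without KYSE180 native 2 or overexpression 2). Besides TFRC, RRS1, an assembly factor of the large subunit, and POLR1A, the catalytic subunit of RNA polymerase I, fell, with -0.80 (SE 0.12, adjusted p = 0.0011) and -0.76 (SE 0.13, adjusted p = 0.002). POLR1A was at 7.86, 6.19 and 4.63 FPKM in native KYSE180 and 2.31, 3.43 and 3.06 FPKM with overexpression. POLR1A in KYSE150 had 6.65, 6.91 and 6.59 FPKM in native cells and 3.39, 5.22 and 3.3 FPKM with the hairpin. Hairpin 2 was the hairpin library nearest the natives, and no groups overlapped. Of 78 ribosomal protein genes 42 were called higher and none lower, and 36 did not pass, with a median of 0.39 (0.53 in KYSE180 and 0.23 in KYSE150). Within KYSE180 31 were called higher, against 8.76% of all genes, and within KYSE150 3, against 12.8%. The difference between lines was called for none of them. On leaving out 1 library 30 to 55 were called higher (1 was called lower without KYSE180 native 3, overexpression 1, hairpin 1 or hairpin 3). RPS23, RPL11, RPL13A and RPL4 had 0.75 (SE 0.20, adjusted p = 0.018), 0.69 (SE 0.16, adjusted p = 0.00816), 0.66 (SE 0.12, adjusted p = 0.00275) and 0.61 (SE 0.12, adjusted p = 0.00383). RPL11 was at 146, 209.6 and 199 FPKM in native KYSE180 and 418, 248.7 and 342 FPKM with overexpression, and at 232, 235 and 227 FPKM in native KYSE150 and 288, 445 and 294 FPKM with the hairpin, and hairpin 2 was the highest hairpin library. Ribosomal protein genes have many near-identical pseudogenes. Of 406 processed pseudogenes tested, 74 (18.2%) were called higher and 17 (4.19%) lower. TAF1D, a subunit of the polymerase I selectivity factor that hosts small nucleolar RNAs, had 1.12 (SE 0.12, adjusted p = 0.000148).

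Of 40 factors of transcription termination and the RNA exosome 11 were called lower and 4 higher (all genes: 11.1% lower and 14.2% higher), with a median of -0.13. ZC3H4 and PPP1R10 led, followed by INTS5, an Integrator subunit, and CSTF2, a cleavage factor, with -0.98 (SE 0.17, adjusted p = 0.00227) and -0.61 (SE 0.14, adjusted p = 0.00896). INTS5 was at 15.5, 14.7 and 14.2 FPKM in native KYSE180 and 12.1, 10.4 and 10.3 FPKM with overexpression. INTS5 in KYSE150 had 10.2, 9.63 and 9.18 FPKM in native cells and 2.64, 2.54 and 2.84 FPKM with the hairpin. The fall was larger in KYSE150, where the groups stood far apart, and the difference between lines was 1.13 (SE 0.13, adjusted p = 0.00215). The higher members, a share below that of all genes, were ZFC3H1, CSTF1, DIS3 and RBM7, with average log2 changes of 0.56, 0.55, 0.49 and 0.43. Of 43 splicing factors 12 were called higher and 8 lower (4 or 5 lower without KYSE180 native 1, KYSE180 native 2, any overexpression library or KYSE150 native 1). The shares over all genes were 14.2% higher and 11.1% lower. CLK1, a kinase of SR proteins, was at 4.82, 5.72 and 4.77 FPKM in native KYSE180 and 10.9, 9.32 and 10.9 FPKM with overexpression. CLK1 in KYSE150 had 4.53, 4.09 and 4.99 FPKM in native cells and 12, 8.64 and 13.4 FPKM with the hairpin. All construct libraries were higher, with 1.02 (SE 0.11, adjusted p = 0.000148). RBM39, CLK4 and HNRNPC also rose (0.70, 0.64 and 0.56), and HNRNPM, SRSF1 and SRSF3 fell (-0.89, -0.86 and -0.84).

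Of 9 protein arginine methyltransferases and partners 5 were called lower and none higher. PRMT6, which methylates histone H3, was at 9.04, 9.16 and 7.66 FPKM in native KYSE180 and 5.02, 5.51 and 4.33 FPKM with overexpression. PRMT6 in KYSE150 had 12.3, 11.8 and 12.2 FPKM in native cells and 2.25, 2.85 and 2.77 FPKM with the hairpin. The drop was larger in KYSE150; the average was -1.28 (SE 0.18, adjusted p = 0.000743) and the difference between lines 1.17 (SE 0.16, adjusted p = 0.0034). PRMT7 and PRMT2 had -0.52 (SE 0.09, adjusted p = 0.00249) and -0.42 (SE 0.08, adjusted p = 0.00272). Of 16 genes for the biogenesis of lysosome-related organelles 2 were called lower, a share close to the 11.1% of all genes. These were HPS6 and DTNBP1, with -1.56 (SE 0.24, adjusted p = 0.00117) and -0.52 (SE 0.10, adjusted p = 0.00269). HPS6 differed between lines by 1.63 (SE 0.16, adjusted p = 0.000899). Of 18 genes of iron uptake and storage 3 were called higher and 3 lower (1 lower without overexpression 3, KYSE150 native 1 or KYSE150 native 2). Both counts were near the shares of all genes, 14.2% higher and 11.1% lower. Beside the fall of TFRC, the iron-sulfur scaffold ISCU and the iron chaperone PCBP2 rose by 0.59 and 0.37.

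**Figure D4:**
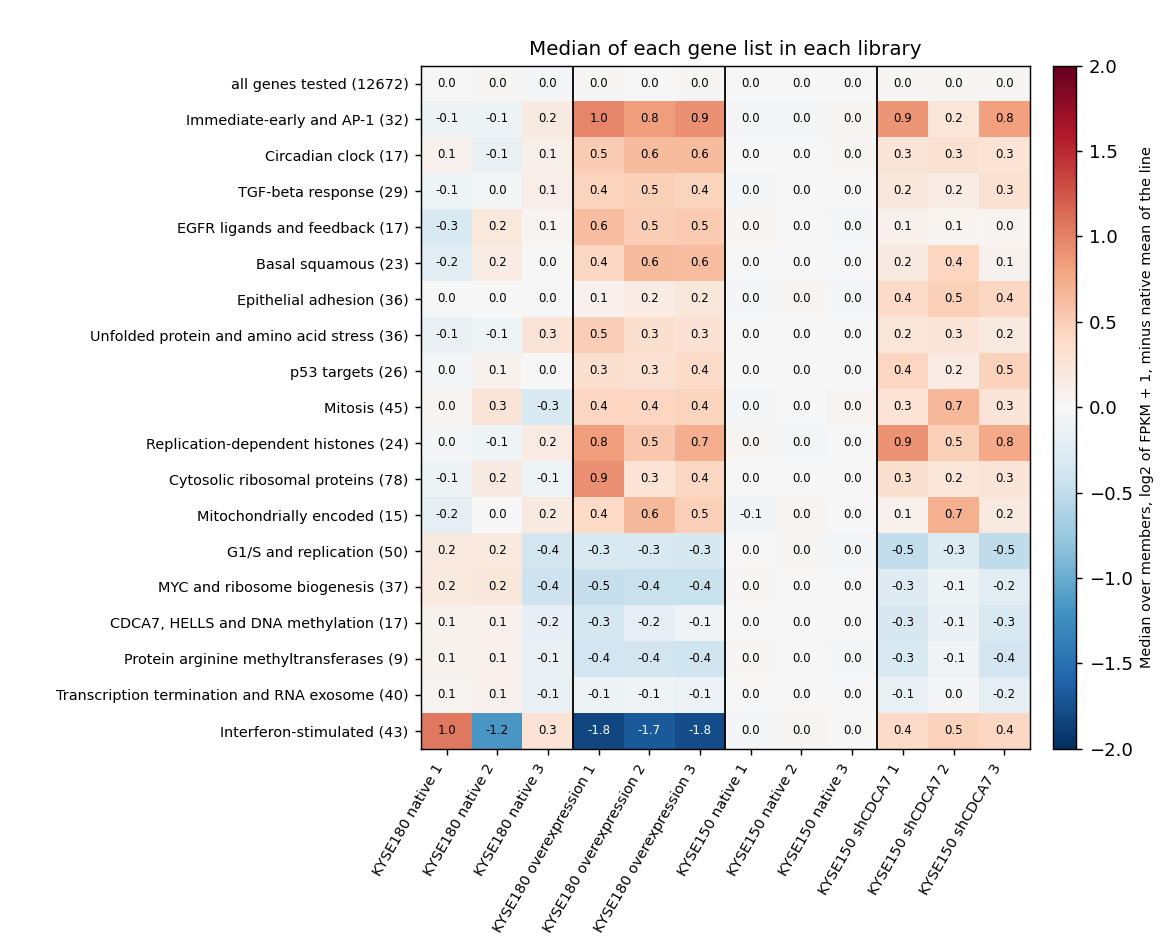
Median of each gene list in each of the 12 libraries, as the difference in log2(FPKM + 1) from the mean of the line's 3 native libraries; columns are libraries, rows are lists and the colour scale runs from lower to higher. The immediate-early list is raised in all 6 construct libraries and the G1/S list is lowered in all of them, whereas the interferon-stimulated list is low in overexpression libraries and high in hairpin libraries.

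Interferon-stimulated genes moved differently in the lines. Of 43 interferon-stimulated genes 2 were called lower and none higher on average, while 25 were called lower in KYSE180 and 10 higher in KYSE150; the median was -1.82 in KYSE180 and 0.46 in KYSE150, and the difference between lines was called for 13. KYSE180 native 2 stood apart: relative to the native mean of the line the list's median was 1.05, -1.17 and 0.27 in KYSE180 natives and -1.82, -1.68 and -1.77 in overexpression libraries, so native 2 lay nearest to the latter. The average count moved with single libraries: 6 were called lower without hairpin 2 and 1 without any other library but KYSE180 native 2, and 3 and 1 were called higher without KYSE180 native 2 and overexpression 2. TRIM21, an intracellular antibody receptor, was lower in both lines, at 26.8, 9.38 and 14.5 FPKM in native KYSE180 and 7.37, 8.01 and 7.77 FPKM with overexpression, and at 7.85, 6.96 and 7.91 FPKM in native KYSE150 and 3.67, 3.86 and 3.8 FPKM with the hairpin, with -0.88 (SE 0.18, adjusted p = 0.00429). Genes whose groups stood apart in opposite directions numbered 363 (2.86%), against 1211 (9.56%) higher and 903 (7.13%) lower in both. IFI44, IFIT1, IFIT3 and IFIH1, all interferon-induced, were among them. IFI44 was at 117, 28.9 and 80.9 FPKM in native KYSE180 and 12.8, 13.8 and 13.9 FPKM with overexpression. IFI44 in KYSE150 had 1.03, 0.959 and 1.08 FPKM in native cells and 9.9, 13.6 and 9.18 FPKM with the hairpin. KYSE180 natives ranged widely but none reached down to the overexpression libraries. GJB5, a connexin, PTHLH, the parathyroid hormone-like hormone, and TNS4, a focal adhesion protein, stood apart in the direction of CDCA7, with log2 changes of 0.95 in KYSE180 and -1.12 in KYSE150, of 1.7 in KYSE180 and -0.80 in KYSE150, and of 0.96 in KYSE180 and -1.03 in KYSE150.

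NRF2 and antioxidant genes also differed between the lines. Of 33, 5 were called lower and 3 higher in KYSE180, and 12 higher and 1 lower in KYSE150, with medians of -0.17 and 0.36; the difference was called for 10, against 4.83% of all genes.

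Further lists had few calls or calls in both directions for the average (all genes: 14.2% higher and 11.1% lower). Of 25 inflammatory genes 3 were called higher and 2 lower; NFKBIA, the inhibitor of NF-kappaB, NFKBIZ, a nuclear coactivator, and the cytokine IL18 rose by 0.90, 0.62 and 0.59, and NFKB1 fell by 0.39 on the log2 scale. The higher count was 5 without KYSE180 native 1 or hairpin 2; the lower count was 4 without KYSE180 native 2 and 1 without KYSE180 native 1, KYSE180 native 3, any overexpression library or KYSE150 native 2. Of 31 genes of cholesterol and fatty acid synthesis 7 were called higher (11 without KYSE180 native 1) and 2 lower, a lower count that ran from 0 to 4 on leaving out 1 library. MSMO1, INSIG1 and FDFT1, of the sterol pathway, rose by 0.90, 0.87 and 0.65, each with overlapping groups in KYSE180. Hypoxia and NRF2 lists had 3 higher and 4 lower calls each, of 32 and 33 genes, heat shock genes 3 and 2 of 22, and hosts of small nucleolar RNAs 6 and 1 of 23. On leaving out 1 library these counts ran for hypoxia genes from 3 to 5 higher and 2 to 9 lower, for NRF2 genes from 2 to 6 higher and 1 to 4 lower, for heat shock genes from 1 to 3 higher and 0 to 5 lower and for the host genes from 3 to 9 higher, with 1 lower throughout.

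Mitochondrial transcripts took a larger share of construct libraries. Genes of the mitochondrial genome received 4.76%, 5.20% and 6.38% of reads in KYSE180 natives and 7.97%, 8.56% and 8.65% in overexpression libraries, and 4.03%, 4.15% and 4.10% in KYSE150 natives and 5.20%, 11.2% and 5.73% in hairpin libraries. The groups did not overlap in either line, and hairpin 2 was the highest of all. The mean difference was 3.12 percentage points (exact permutation test within lines, two-sided p = 0.005, the smallest that 400 relabellings can give, and p = 0.00833 after Benjamini-Hochberg adjustment over the 5 library measures tested), and without hairpin 2 it was 2.16 points. The share of reads on the 10 most abundant genes was also higher, by 3.51 points (exact permutation p = 0.005, adjusted 0.00833), and the library size implied by the deposited scaling was lower, with a mean difference of -2.79 M reads (M for mega; exact permutation p = 0.02, adjusted 0.025). For total reads the same exact permutation test gave p = 0.5 before and after adjustment. Of all 35 mitochondrial genes tested 9 were called higher and none lower, with a median change of 0.15 (0.37 in KYSE180 and 0.04 in KYSE150). In the list of 15 that leaves out transfer RNAs, 6 were called higher and none lower, with a median of 0.54. The 20 transfer RNA genes, with a median length of 69 bases, had 3 higher calls. Their median change was -0.17 (0.08 in KYSE180 and -0.63 in KYSE150). MT-RNR2, the large ribosomal RNA, was at 1550.3, 2368 and 2488 FPKM in native KYSE180 and 12831, 10242 and 12537 FPKM with overexpression. MT-RNR2 in KYSE150 had 3299, 3081 and 3335 FPKM in native cells and 10004, 28326 and 10965 FPKM with the hairpin. It was several times higher in every construct library, with 2.34 (SE 0.24, adjusted p = 0.000125). MT-RNR1, the small ribosomal RNA, and MT-CO2, a subunit of cytochrome oxidase, had 1.23 (SE 0.15, adjusted p = 0.000317) and 0.78 (SE 0.19, adjusted p = 0.00986). Of 72 nuclear genes of the respiratory chain 9 were called higher and none lower (4 without KYSE180 native 1, 5 without KYSE150 native 1 and 15 without hairpin 2), with a median of 0.12, and of 74 mitochondrial ribosomal proteins 8 were called higher and 6 lower, with 3 to 5 higher calls on leaving out any 1 library other than KYSE180 native 2 and those with the hairpin. With all 12 libraries, the shares of both lists lay below those of all genes, 14.2% higher and 11.1% lower. The part of this share in the other results was not tested.

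**Figure D5:**
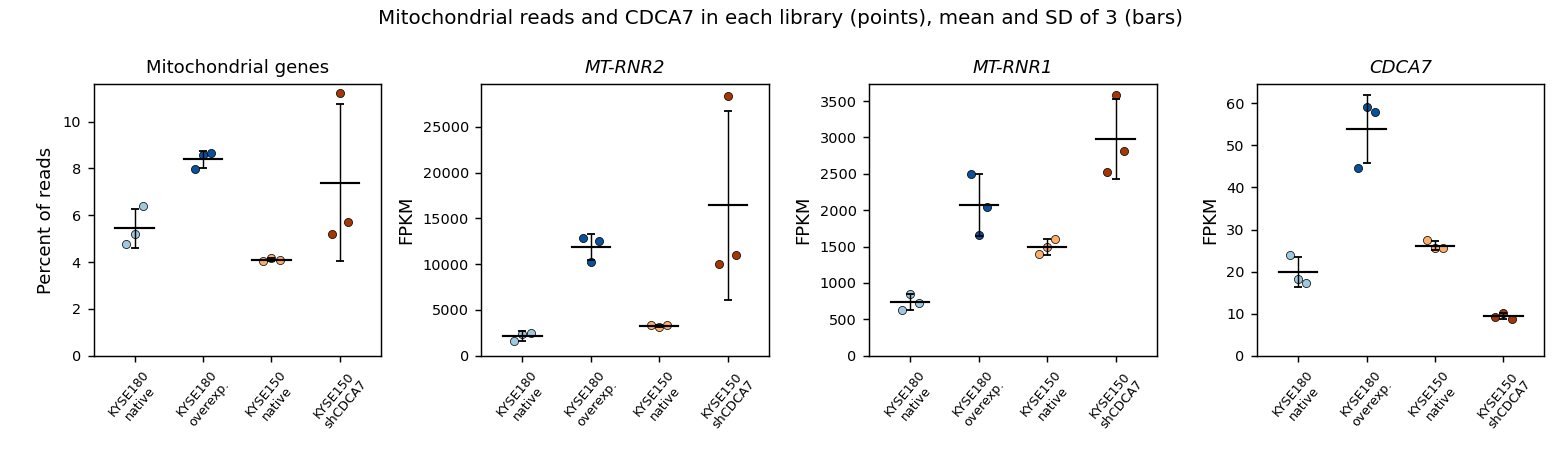
Percent of reads on mitochondrial genes, and FPKM of the genes named over the other panels, in each of the 12 libraries by group; points are libraries and bars the mean and SD of 3. The mitochondrial share is higher in all construct libraries of each line, with hairpin 2 at 11.2%, while CDCA7 goes up in KYSE180 and down in KYSE150.

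The direction of a small change depends on the scaling. With the deposited values the median gene hardly moved (0.03 on average). On total reads the median shifted by -0.15, and 840 genes were called higher and 2810 lower: 23.0% of calls were higher, against 56.1% with the deposited scaling. All 1407 lower calls kept their direction and 840 of the 1801 higher ones were called, none with the opposite sign. Immediate-early genes were called higher in 19 of 32 cases, mitosis genes in 15 of 45 (2 lower) and histones in 12 of 24, while ribosomal proteins had 11 higher and 1 lower of 78 and epithelial adhesion genes had 6 and 3 of 36. The G1/S list had 36 lower calls of 50 and the MYC and biogenesis list 24 of 37. The median of the nuclear respiratory list changed sign, to -0.06, and that of SMAD signalling components was 0.00; SMAD4 was not called (0.15, adjusted p = 0.14).

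Called genes differed in base composition and level. The median GC content of exons was 44.3% for genes called higher, 53.3% for those called lower and 48.5% for all tested. Across genes the change correlated with GC content at r = -0.01 in KYSE180 and -0.37 in KYSE150, and at -0.13 in KYSE150 without hairpin 2. With the trend on GC content removed from each library, 2109 genes were called higher and 1679 lower, the medians were 49.4% and 48.1%, and 2742 of the 3208 calls were kept in direction. Of the fifth of genes with the highest level 24.5% were called higher and 4.73% lower, and of the fifth with the lowest level 6.11% and 14.4%. By class of transcription factor, 15 of 36 bZIP genes were called higher and 1 lower, 6 of 17 ETS genes higher and none lower, and 32 of 343 C2H2 zinc finger genes higher and 70 lower. Of 413 antisense RNAs 36 (8.72%) were called higher and 65 (15.7%) lower. Over all genes tested the shares were 14.2% higher and 11.1% lower. The part of level and GC content in the counts of these classes was not tested.

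Whether the authors counted by strand is not stated in any label or header, so reads of genes whose exons overlap on opposite strands cannot be told apart. Among the genes described at length this applies to NR1D1 with THRA, HBP1 with COG5, TELO2 with IFT140, JUNB with HOOK2, DDIT3 with MARS and MBD6, CHAF1A with UBXN6, FEN1 with TMEM258, PRKAR1B with DNAAF5, PRMT7 with SMPD3, RPL4 with ZWILCH, RPS23 with ATG10, ESRP2 with NFATC3, and ERRFI1, BHLHE40, IER3, CDKN1A, FADD, RIPK1, ITGA6 and NGFR with antisense RNAs.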

How the data were processed

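Total RNA of 12 libraries, 3 per group, was sequenced on a standard Illumina workflow, and the gene table holds FPKM deposited by the authors for 58735 genes. The submitters' processing notes name HISAT2 2.0.5 and DESeq2 1.20.0 and the mouse build mm10, while 58724 gene IDs and positions match GENCODE 29 (GRCh38), which is used for coordinates here; the counting tool and its strand are not given in the sources used here. FPKM times exonic length gave whole reads for 100% of the authors' values (tolerance 0.01 read), and depth, 16282281 to 19573805 reads, limits genes of few reads.

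Groups follow the labels. For genes with a mean of at least 1 FPKM, log2(FPKM + 1) was fitted with limma 3.58.1 (trend, R 4.3.3) on cell line and construct, and a second fit of the 4 group means gave each line's change and their difference. Adjusted p is Benjamini-Hochberg over 12672 genes, called under 0.05; a log2 change understates that of low genes. The scripts were tested on simulated data. Alternatives were another pseudocount (0.1), filters (none, or 5 FPKM), scalings, limma-voom on recovered reads, GC removal, replicate number as a block, and fits without each library in turn.

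The members and gene lists were chosen with earlier results of these data known. Named are CDCA7, HELLS, SMAD4 and SMAD7; 12 genes per direction with no overlap in either line, ranked by the smaller within-line change; up to 4 called members per list and direction, those whose call was lost on leaving out 1 library being counted but not named, SMAD4 aside; up to 4 called genes per direction with overlap in 1 line; and up to 4 that moved in opposite directions. EGR1, FN1, DUSP4 and ETV4 are given as members that did not pass.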

Additional observations from a re-analysis of the deposited data

Results flagged for a closer look

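For 16 named genes the change with overexpression in KYSE180 differed from the change with the hairpin in KYSE150 at an adjusted p under 0.05 in limma, given here as the KYSE180 change minus the KYSE150 change in log2 units. CDCA7 itself differed by 2.79 (SE 0.20, adjusted p = 0.000119), as its opposite manipulation sets. Of genes apart in opposite directions, IFI44 differed by -4.73 (SE 0.53, adjusted p = 0.00163), IFIT3 by -4.56 (SE 0.54, adjusted p = 0.00215), IFIT1 by -4.39 (SE 0.60, adjusted p = 0.00353) and IFIH1 by -2.46 (SE 0.32, adjusted p = 0.00307), all interferon-induced and lower with overexpression. The connexin GJB5 differed by 2.07 (SE 0.26, adjusted p = 0.00265), the hormone gene PTHLH by 2.5 (SE 0.45, adjusted p = 0.0134) and the adhesion gene TNS4 by 1.99 (SE 0.24, adjusted p = 0.00215), in the direction of CDCA7.

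The other 8 genes were also called for the average. MMP2, whose KYSE150 groups overlapped and which was called in KYSE180 alone, differed by 1.9 (SE 0.21, adjusted p = 0.00159). DUSP6 and ETV5, with larger increases in KYSE180, differed by 1.37 (SE 0.24, adjusted p = 0.012) and 1.34 (SE 0.23, adjusted p = 0.0116). The lower genes HPS6, FADD, PRMT6 and INTS5 were lower by more in KYSE150, with differences of 1.63 (SE 0.16, adjusted p = 0.000899), 1.43 (SE 0.25, adjusted p = 0.013), 1.17 (SE 0.16, adjusted p = 0.0034) and 1.13 (SE 0.13, adjusted p = 0.00215). The histone gene HIST2H2BE rose by more in KYSE150, with -1.5 (SE 0.35, adjusted p = 0.033). Its difference lost the call without 9 of the 12 libraries in turn, all but KYSE180 native 2, KYSE180 native 3 and hairpin 2, with adjusted p from 0.00748 to 0.0954; the other 15 differences were called in each of the 12 fits. No group has the 4 libraries that a check for single outlying values needs.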

How the results depend on the processing

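The average construct effect was called for 2444 to 3788 genes under pseudocount, filter-free, scaling, voom and GC alternatives (3512 with limma-voom on recovered reads), against 3208. It was called for 2116 of 7539 genes with a mean of at least 5 FPKM, fewer because fewer were tested, for 1455 at an adjusted p under 0.01 and for 2319 to 4308 without 1 library. The KYSE180 count of 2046 was 1188 at 5 FPKM and 721 to 3709 without 1 library, the KYSE150 count of 2895 was 1457 to 3530, and the count of differences between lines, 612, was 375 at 5 FPKM and 158 to 1199. Higher genes were 68.4% of the average calls and 67.3% of the KYSE150 calls at 5 FPKM. On total reads they were 29% in KYSE180 and 20.8% in KYSE150 (54.3% and 56.1% as deposited), and positive differences 67.1% (52.8%). No call of the average changed sign under any alternative.

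Replicate numbers did not pair the libraries: deviations of same-numbered libraries correlated at -0.07 to 0.05 and 1 of 6 libraries correlated best with its own number. With replicate number as a block the average was called for 2008 genes, KYSE180 for 920, KYSE150 for 1795 and the difference for 73; the differences of DUSP6, ETV5, FADD, PTHLH and HIST2H2BE were not called then (adjusted p from 0.0519 to 0.083). The excess of mitochondrial reads, 3.12 points, was 2.16 to 3.67 without 1 library and 7.41 points of summed FPKM.

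Over all genes, 2308 to 3116 of the 3208 calls were kept without 1 library; most named genes were named on condition of keeping theirs, and SMAD4 and HELLS did not. Among 121 named genes the call was lost for 7 with no filter, 3 on total reads, 5 with the block and 2 with GC removed; the cause was not tested. Genes of few reads, microRNA loci above all, are limited by depth.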
